A study of Mus musculus with 3 samples.

Results

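The genes Klf2, Klf4 and Klf5 encode Krüppel-like zinc finger transcription factors of the naive pluripotent state. Their chromatin accessibility was compared between SOX2-ON, SOX2-OFF and CEpiLC samples by ATAC-seq, an assay that reads open chromatin from the insertions of a transposase. The members were every peak overlapping the body of any of the 3 genes or the 100 kb on either side of it (GENCODE M21, mm10), a rule of position alone, applied to genes that were picked with earlier results of these data known. Of 129843 SOX2-ON peaks, 68 fell in these windows, as did 82 of 131520 for SOX2-OFF and 54 of 130348 for CEpiLC. Overlapping or abutting peaks of the 3 lists were merged into regions, of which 103 of 219473 lay in the windows: 53 at Klf2, 9 at Klf4 and 41 at Klf5.

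All 3 samples were mouse ES cell derivatives of the HM1 (129) background taken at 72 h, after 2 days in 10 ng/ml bFGF and 5 µM LGK974, an inhibitor of WNT secretion, followed by the same factors with the WNT pathway agonist CHIR99021. SOX2-ON and SOX2-OFF came from the SOX2 TetON line, whose genotype is given as Sox2-/- and in which an Hprt-targeted Sox2 transgene responds to doxycycline through rtTA expressed from Rosa26. Doxycycline at 1 µg/ml was kept in the medium of SOX2-ON throughout differentiation and was withdrawn from SOX2-OFF. The CEpiLC sample (caudal epiblast-like cells) was labelled wild-type and received no doxycycline treatment. The paper gives the parental HM1 TetON line, which also carries the Rosa26 rtTA, as its wild-type control. During differentiation SOX2-ON alone received doxycycline, so effects of the drug cannot be told apart from those of SOX2. The engineered line was obtained by picking edited clones, so its differences from the wild type cannot be told apart from those of the clone. The ES cells were grown on feeder fibroblasts, from which they were separated by differential adhesion before differentiation. Each group was 1 sample of 50000 cells, so no difference below could be set against a spread between replicates and no p-value was computed between groups. In bulk chromatin, accessibility in fewer cells and lower accessibility per cell cannot be told apart.

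In naive mouse ES cells the products of the 3 genes bind GC-rich sites alongside OCT4, SOX2 and NANOG and act in part redundantly to sustain self-renewal. Klf4 is a direct target of LIF and STAT3 signalling and belongs to the classic reprogramming factor set. Klf2 is a target of OCT4 in ES cells and its product is depleted after FGF and ERK signalling, and Klf5 is needed for the early inner cell mass and trophectoderm. All 3 genes are normally lowered as cells leave naive pluripotency for the epiblast state.

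Each peak was described by its rank, which orders the peaks of its own list by the peak caller's −log10 p, with rank 1 the strongest. Ranks were preferred because the −log10 p scale differed between lists: the peak ranked 20000 had a −log10 p of 26.4, 21.2 and 10.6 in the SOX2-ON, SOX2-OFF and CEpiLC lists. Fold enrichment is the deposited ratio of the read pileup to the local background of the same library. Strong peaks were the 20000 best-ranked of a list, and a peak was missing from another list where less than 10% of its length was covered there. Distances run from the annotated gene start to the region midpoint, negative upstream. A peak absent from a list fell short of the authors' q limit of 0.1 in that library, which does not show closed chromatin.

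The 5 strong SOX2-ON peaks over 1 kb from any coding start that were missing or ranked at least 2 times lower in SOX2-OFF are shown first, chosen for that difference after the values were seen. Each line below is the central 300 bases of a SOX2-ON peak, read on the plus strand of the GRCm38.p6 reference, which is the mm10 build and carries C57BL/6J and not 129 sequence. Capitals mark matches to any of 8 short motifs on either strand: SOX (ACAATG), OCT (ATGCAAAT), TCF/LEF (ATCAAAG), KLF (CCNCNCCC), STAT (TTCNNNGAA), ESRRB (AAGGTCA), T-box (AGGTGTGA) and CDX (CAATAAA).
Klf2 −7.9 kb, chr8:72311033-72311332: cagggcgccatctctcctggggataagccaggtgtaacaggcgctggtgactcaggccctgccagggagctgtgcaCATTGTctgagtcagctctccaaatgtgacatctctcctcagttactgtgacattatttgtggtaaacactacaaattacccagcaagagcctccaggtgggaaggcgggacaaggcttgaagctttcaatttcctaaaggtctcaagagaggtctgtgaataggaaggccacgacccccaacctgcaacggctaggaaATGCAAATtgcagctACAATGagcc
Klf2 −2.7 kb, chr8:72316233-72316532: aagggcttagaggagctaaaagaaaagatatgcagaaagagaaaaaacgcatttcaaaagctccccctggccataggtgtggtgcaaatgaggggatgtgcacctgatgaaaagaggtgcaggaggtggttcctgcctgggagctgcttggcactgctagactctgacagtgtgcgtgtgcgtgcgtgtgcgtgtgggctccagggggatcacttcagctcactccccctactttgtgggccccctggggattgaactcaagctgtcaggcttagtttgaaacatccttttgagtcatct
Klf4 +68.1 kb, chr4:55464184-55464483: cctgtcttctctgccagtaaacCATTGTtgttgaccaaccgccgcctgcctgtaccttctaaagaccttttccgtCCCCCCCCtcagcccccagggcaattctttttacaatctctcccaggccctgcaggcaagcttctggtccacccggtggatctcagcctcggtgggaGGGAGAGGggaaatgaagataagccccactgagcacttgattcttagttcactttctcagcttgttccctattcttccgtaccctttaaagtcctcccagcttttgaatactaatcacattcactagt
Klf5 −22.8 kb, chr14:99275272-99275571: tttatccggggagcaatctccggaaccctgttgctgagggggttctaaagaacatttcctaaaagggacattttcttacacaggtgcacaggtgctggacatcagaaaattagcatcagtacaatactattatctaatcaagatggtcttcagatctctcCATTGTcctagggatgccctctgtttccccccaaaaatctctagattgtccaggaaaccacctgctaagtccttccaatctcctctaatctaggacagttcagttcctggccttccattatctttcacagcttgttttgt
Klf5 +33.3 kb, chr14:99331693-99331992: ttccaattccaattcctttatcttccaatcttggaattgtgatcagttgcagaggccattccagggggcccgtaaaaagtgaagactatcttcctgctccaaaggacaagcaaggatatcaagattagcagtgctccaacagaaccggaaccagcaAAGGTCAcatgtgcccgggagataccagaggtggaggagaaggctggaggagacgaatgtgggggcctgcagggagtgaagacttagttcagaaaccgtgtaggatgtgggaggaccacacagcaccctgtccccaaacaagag
The Klf2 −7.9 kb sequence held 1 OCT and 2 SOX matches, and the OCT match at bases 276 to 283 was followed by a SOX match at bases 291 to 296. The Klf2 −2.7 kb sequence held none of the 8 motifs and contained a run of alternating GT and GC dinucleotides. At Klf4 +68.1 kb there were 1 SOX and 2 KLF matches, at Klf5 −22.8 kb 1 SOX match and at Klf5 +33.3 kb 1 ESRRB match. No match of one motif overlapped a match of another in these sequences. Among all 7335 strong SOX2-ON peaks over 1 kb from any coding start, the central 300 bases held SOX in 19.6% and OCT in 3.72%. KLF was in 43.5% of them and ESRRB in 5.59%.

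The starts of all 3 genes held a strong peak in every list. At the Klf2 start (chr8:72318553-72320387, spanning the start, exon and UTR sequence) the peak ranked 5744, 5037 and 7231 in SOX2-ON, SOX2-OFF and CEpiLC, with fold enrichments of 3.31, 3.13 and 2.83. The Klf4 start (chr4:55529792-55533490) ranked 7479, 12551 and 16546 in SOX2-ON, SOX2-OFF and CEpiLC, with fold enrichments of 2.86, 2.15 and 2.08. The Klf5 start (chr14:99298253-99299564) ranked 2144, 946 and 1827 in SOX2-ON, SOX2-OFF and CEpiLC, with fold enrichments of 5.14, 4.15 and 3.68. By −log10 p, Klf4 was the only one of the 3 starts ranked best in SOX2-ON, and Klf2 and Klf5 were ranked best in SOX2-OFF. Over 15748 protein-coding genes with a start peak in all 3 lists, the median ratio of the SOX2-OFF to the SOX2-ON rank was 0.958. The Klf4 ratio was 1.68, and 6.9% of those genes had a ratio at least as high. The Klf2 ratio was 0.877, which 60.8% reached or exceeded, and the Klf5 ratio was 0.441, which 96.9% reached or exceeded. The CEpiLC to SOX2-ON ratio was 1.26 at Klf2, 2.21 at Klf4 and 0.852 at Klf5, beside a median of 0.986. The order at Klf2 and Klf5 depended on the ranking. By fold enrichment CEpiLC was best at both, with ranks of 13798, 9727 and 8920 at Klf2 and 3452, 2502 and 2144 at Klf5. Among the peaks of chromosome 8 the Klf2 ranks were 420, 419 and 411 in SOX2-ON, SOX2-OFF and CEpiLC. These were out of 16235, 15870 and 5934 peaks, so as a share of its list the CEpiLC rank was not the best. Fold enrichment thus brought the Klf2 CEpiLC ratio to 0.646, and moved the Klf5 SOX2-OFF ratio to 0.725 and the Klf4 CEpiLC ratio to 1.31 without turning theirs.

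At Klf2, both strong SOX2-ON peaks that lay over 1 kb from any coding start were upstream of the gene, and neither was found at that strength elsewhere. The −7.9 kb region (chr8:72310815-72311550, intergenic) ranked 10430 in SOX2-ON with a fold enrichment of 3.64, ranked 36129 in SOX2-OFF with 1.98, and had no peak in CEpiLC. The SOX2-OFF rank was thus 3.46 times that of SOX2-ON. The −2.7 kb region (chr8:72316151-72316613, intergenic) ranked 10376 in SOX2-ON and had no peak in SOX2-OFF or CEpiLC. Its fold enrichment, 2.47, was low for that rank, since only 8 of the 1001 SOX2-ON peaks within 500 ranks had a value that low and their median was 3.84. Its width of 463 bp was also small beside their median of 1290 bp, and by fold enrichment alone it ranked 24907. The −46.8 kb region (chr8:72270671-72273802, intergenic) ranked 21132, 48867 and 28385 in SOX2-ON, SOX2-OFF and CEpiLC. Of the regions away from starts and common to all 3 lists at this locus, it had the widest rank ratio between SOX2-ON and SOX2-OFF. Starts of neighbouring genes fill out the window: the Ap1m1 start, which encodes a clathrin adaptor subunit, ranked 33, 41 and 489, that of Eps15l1 1842, 2393 and 7519, and that of Fam32a 11070, 14488 and 11007.

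Klf4 was a sparse locus with no other protein-coding gene in its window. Of its strong SOX2-ON peaks away from the gene start, 1 was ranked lower in both other samples. The +68.1 kb region (chr4:55463808-55464859) lay in an intron of the non-coding RNA gene Gm12510, 955 bp from a start of that gene, and was singled out after its values were seen. It ranked 6085 in SOX2-ON with a fold enrichment of 5.03, against 76873 with 1.57 in SOX2-OFF and 81016 with 1.69 in CEpiLC. Its SOX2-ON peak outranked the peak at the Klf4 start in the same list. The peaks also differed in extent, with widths of 1052, 318 and 333 bp in that order. The SOX2-OFF to SOX2-ON rank ratio was 12.6. Of 7335 strong SOX2-ON peaks away from coding starts, 6361 were found in SOX2-OFF, with a median ratio of 1.19. Among those found, 29 (0.456%) reached a ratio of 10. That share leaves out the peaks missing from SOX2-OFF, which have no ratio. Nor could the lower-ranked strong peaks reach 10, since the SOX2-OFF list ends at rank 131520.

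The other intergenic Klf4 regions did not share this order. The +17.1 kb region (chr4:55514368-55516309) ranked 10230, 7578 and 5861 in SOX2-ON, SOX2-OFF and CEpiLC. The +51.7 kb region (chr4:55480223-55481302) ranked 24269, 16964 and 17389, so both were ranked lowest in SOX2-ON. The +54.6 kb region (chr4:55477226-55478550) ranked 24759, 47819 and 23828 in SOX2-ON, SOX2-OFF and CEpiLC and was thus lower in SOX2-OFF alone. The remaining 4 regions were weak peaks of SOX2-ON, ranked 55654 to 109992, of which 1 was also in CEpiLC and none in SOX2-OFF. All 4 were thus ranked best in SOX2-ON.

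At Klf5, 2 flanking regions with a strong SOX2-ON peak were ranked lower or had no peak in both other lists. Several other regions were ranked lowest in SOX2-ON. The −22.8 kb region (chr14:99274856-99276927, intergenic) ranked 14098 in SOX2-ON with a fold enrichment of 3.35. It ranked 57835 with 1.57 in SOX2-OFF and 109729 with 1.63 in CEpiLC. That CEpiLC peak covered 17.1% of the SOX2-ON peak and lay outside the bases of it shown above. The +33.3 kb region (chr14:99331302-99332623, intergenic) ranked 12141 with 4.10 in SOX2-ON and 51360 with 1.73 in SOX2-OFF, and it had no peak in CEpiLC. The SOX2-OFF ranks were 4.10 and 4.23 times those of SOX2-ON. In the opposite direction, the −78.8 kb region (chr14:99219364-99220431), in an intron of Pibf1, ranked 36274, 12806 and 20340 in SOX2-ON, SOX2-OFF and CEpiLC, with fold enrichments of 2.19, 3.47 and 2.37. The +26.1 kb region (chr14:99324261-99325239, intergenic) ranked 17069, 12296 and 25376 in that order, lowest in CEpiLC. At +41.2 kb (chr14:99338787-99341029, intergenic) the ranks were 21768, 17179 and 14877, and at −20.1 kb (chr14:99277393-99279880, intergenic) 51189, 32982 and 36274, both lowest in SOX2-ON and both named after their values were seen. Within the gene itself, 2 narrow regions 5.9 and 6.9 kb from the start had peaks in SOX2-ON alone, at ranks 39928 and 35825. Outside the gene, 3 downstream regions and 1 upstream region also had peaks in SOX2-ON alone. The best of the 3 downstream regions, at Klf5 +68.1 kb, ranked 37602 with a fold enrichment of 2.11, and the upstream region ranked 57892.

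**Figure D1:**
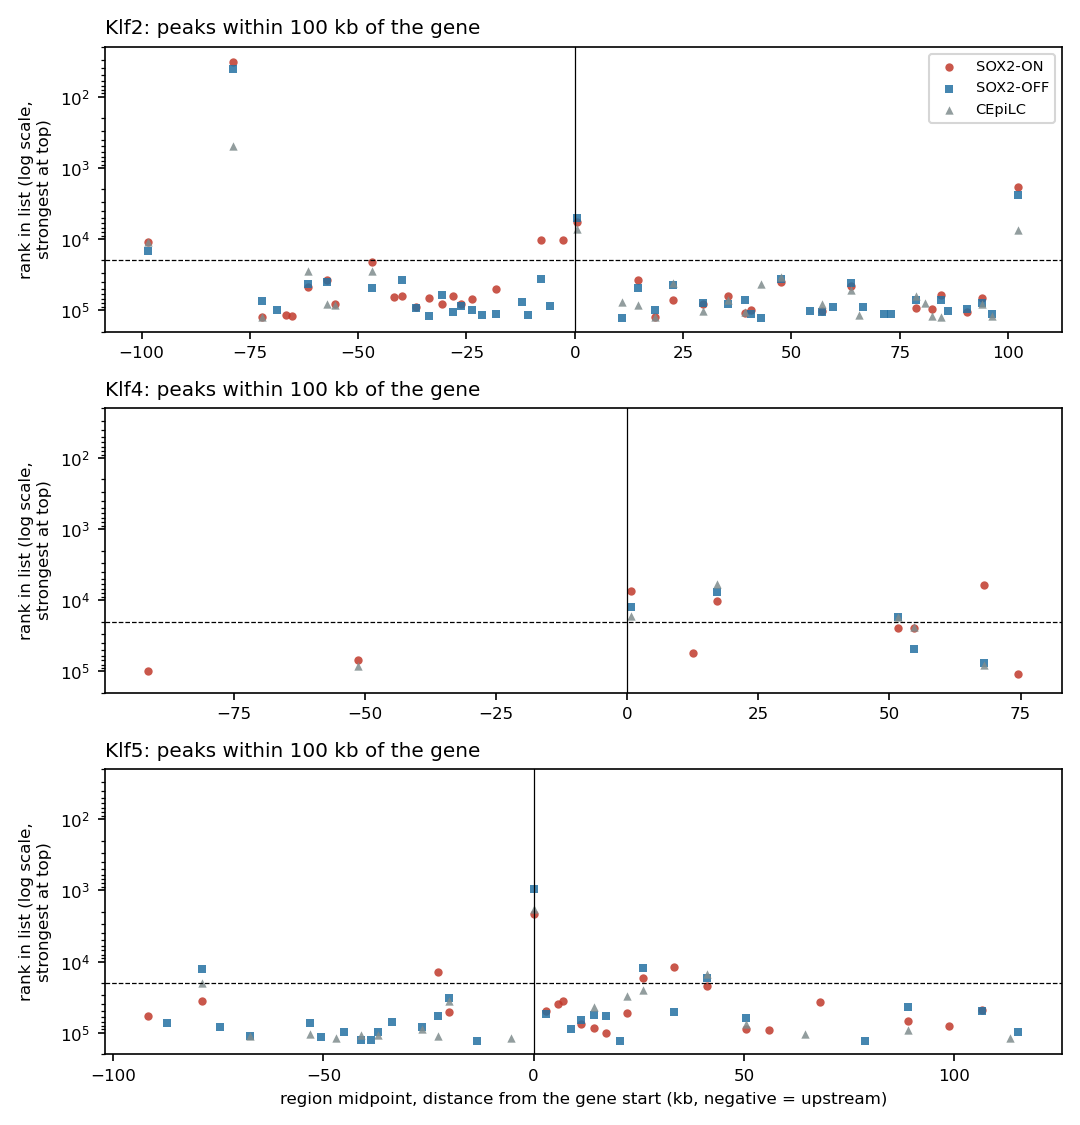
Rank of the best peak of each list in every region of the Klf2, Klf4 and Klf5 windows (vertical log axis, strongest at the top, dashed line at rank 20000) against the distance of the region midpoint from the gene start in kb (negative upstream). Red circles are SOX2-ON, blue squares SOX2-OFF and grey triangles CEpiLC, 1 sample each. Isolated red circles above the dashed line stand at −7.9 and −2.7 kb of Klf2, +68.1 kb of Klf4 and −22.8 and +33.3 kb of Klf5.

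**Figure D2:**
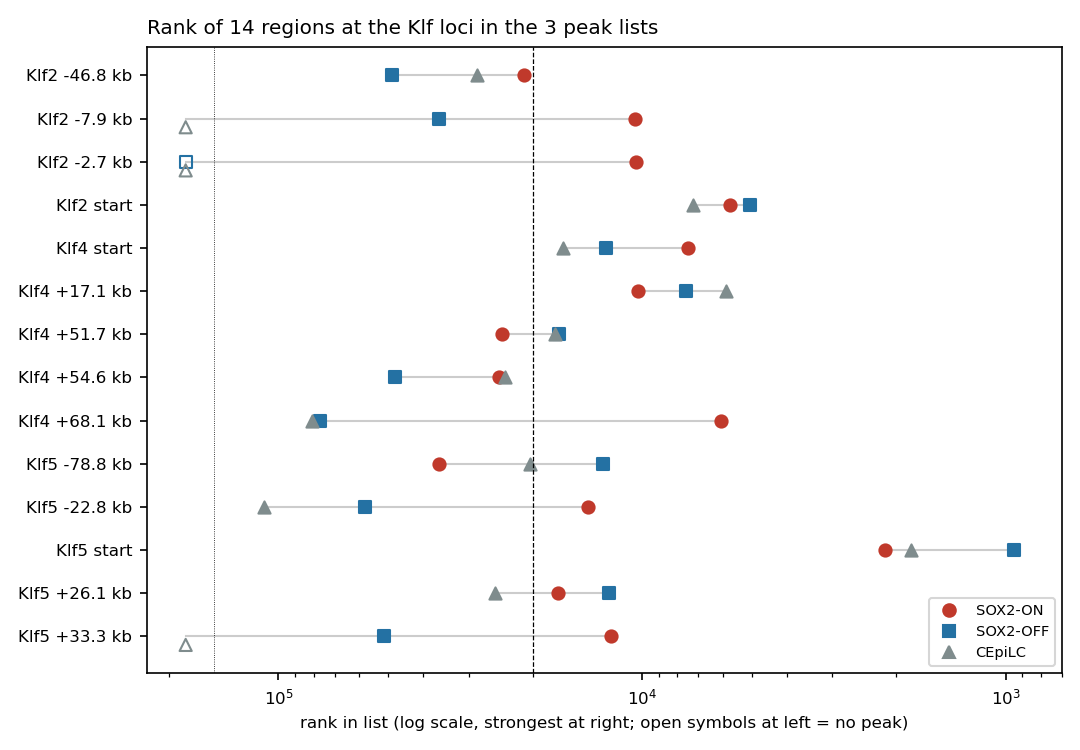
Rank of 14 regions at the Klf loci in the 3 lists (log axis, strongest at the right, dashed line at rank 20000). Filled symbols are peaks and open symbols at the left edge mark lists with no peak there, and 1 sample stands behind each symbol. On this log axis the Klf4 +68.1 kb region has the widest spread of ranks among those with a peak in all 3 lists, from 6085 to 81016.

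Of the 13 strong SOX2-ON peaks in the windows (6 at Klf2, 3 at Klf4 and 4 at Klf5), 1 was missing from SOX2-OFF, the Klf2 −2.7 kb peak, beside 5.04% of all strong SOX2-ON peaks. In the reverse direction 0 of the 11 strong SOX2-OFF peaks were missing from SOX2-ON, beside 1.30% over the list. The CEpiLC list lacked 3 of the 13, the 2 upstream Klf2 peaks and the Klf5 +33.3 kb peak, beside 8.58%. Of the 1330 strong SOX2-ON peaks on chromosome 8, where Klf2 lies, 3.46% were missing from SOX2-OFF and 11.7% from CEpiLC. A count chosen after the data were seen took the strong peaks over 1 kb from any coding start and asked whether they were missing or ranked at least 2 times lower in another list. By that measure 5 of 7 such SOX2-ON peaks were lower in SOX2-OFF, 2 at Klf2, 1 at Klf4 and 2 at Klf5, beside 36.5% of 7335 over the list. The same 5 were lower in CEpiLC, beside 45.1%. On chromosome 8 the shares lower in SOX2-OFF and in CEpiLC were 31.1% and 46.9% of 605 such SOX2-ON peaks. For SOX2-OFF the count was 1 of 5, the Klf5 −78.8 kb peak, beside 19.1% of 6768. All 3 genes had at least 1 such SOX2-ON peak lower in SOX2-OFF within 100 kb, as did 20.7% of all protein-coding genes. With 7 and 5 peaks, these counts describe the loci and support no rate.

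The other members of the family and other naive genes were read in the same way. Among the 14 other Klf genes, which include broadly expressed factors such as Klf6 and Klf10, 4 had a strong SOX2-ON peak away from coding starts that was lower in SOX2-OFF, 8 peaks of 31 in all (25.8%), and 4 of those 8 were at Klf9. Among Nanog, Esrrb, Tfcp2l1, Nr5a2, Zfp42, Tbx3 and Prdm14, transcription factors of naive pluripotency or the germ line, 5 of the 7 genes had such a peak, 8 peaks of 17 (47.1%). Of those 8, 3 were at Nanog on chromosome 6 and 1 at Zfp42 on chromosome 8. The share was 36.5% over all such SOX2-ON peaks, and 20.7% of all protein-coding genes had such a peak lower in SOX2-OFF. The reverse counts were 2 of 25 SOX2-OFF peaks at the other Klf genes and 4 of 15 at the naive genes, beside 19.1% over the list. At the gene starts, 13 of the 14 other Klf genes had a strong peak in each list, Klf17 being the exception with a SOX2-ON peak at rank 58675 and none in SOX2-OFF or CEpiLC. The start ranks most alike across the 3 lists, by the summed absolute difference in log10 rank, were those of Klf15 for Klf2 (0.154), Esrrb for Klf4 (0.335) and Klf7 for Klf5 (0.697).

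Of the 103 regions, 34 (33.0%) were covered in all 3 lists, beside 27.0% of all regions, with 20 of 53 at Klf2, 5 of 9 at Klf4 and 9 of 41 at Klf5. SOX2-ON covered 17 regions that SOX2-OFF did not (16.5%), beside 20.1% of all regions, and SOX2-OFF covered 30 that SOX2-ON did not (29.1%), beside 22.0%. That order held at Klf2, with 6 regions to 14, and at Klf5, with 7 to 16, while at Klf4 it was 4 to 0, all 4 weak in SOX2-ON. The Klf2 shares were 11.3% and 26.4%, beside 26.1% and 26.4% on chromosome 8. Those at Klf5 were 17.1% and 39.0%, beside 20.9% and 23.2% on chromosome 14. The Klf4 shares were 44.4% and 0%, beside 19.3% and 20.6% on chromosome 4. At a −log10 q of at least 2 the peak numbers in the windows no longer had the larger SOX2-OFF number, with 50 in SOX2-ON and 47 in SOX2-OFF. Of the 16 at Klf5, 12 lay among the 18 regions upstream of the gene, between −87.2 and −13.5 kb, 6 of them in introns of Pibf1 and 6 intergenic. These 12 SOX2-OFF peaks were weak, the best ranking 69960 and fold enrichments running from 1.43 to 1.61, and 5 of them were shared with CEpiLC.

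**Figure D3:**
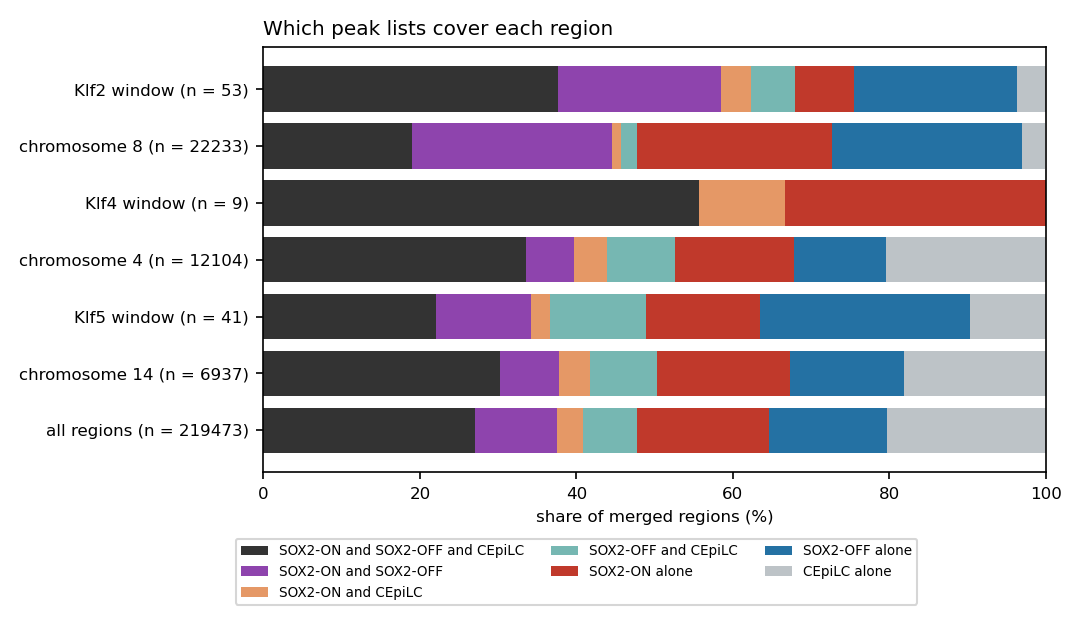
Share of merged regions, in per cent, by the combination of lists covering them, for each Klf window, its whole chromosome and all regions, with the number of regions beside each bar. The Klf4 bar, resting on 9 regions, holds no region of SOX2-OFF without SOX2-ON, and the Klf5 bar has 26.8% of its regions in SOX2-OFF alone beside 14.6% on chromosome 14.

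Klf2 lies on chromosome 8, where the engineered line had an excess of peaks. Chromosome 8 carried 125 peaks per Mb in SOX2-ON and 123 in SOX2-OFF, 3.05 and 3.00 times the median of the autosomes other than 6, 8 and 11, whereas CEpiLC had 45.9 per Mb, 1.01 times. The Klf2 window held 38, 47 and 29 peaks in the SOX2-ON, SOX2-OFF and CEpiLC lists, where the density of the whole chromosome would give 25.4, 24.9 and 9.29. Hence the window was richer in peaks than its chromosome in each list, including the wild type. In the window 11 regions (20.8%) were covered in both states of the engineered line and not in CEpiLC, beside 25.5% on chromosome 8 and 10.5% of all regions. Between −39.9 and −18.3 kb, 8 of these were weak, with no rank better than 37138 and fold enrichments of 1.46 to 1.91. The part of the chromosome 8 excess in the absence of Klf2 peaks from CEpiLC was not tested. Among the peaks of chromosome 8 alone, the −7.9 kb peak ranked 670 in SOX2-ON and 2410 in SOX2-OFF.

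The Klf4 and Klf5 windows lie on chromosomes without that excess. Klf4 had 9, 5 and 6 peaks in SOX2-ON, SOX2-OFF and CEpiLC, which is 43.8, 24.4 and 29.2 per Mb beside 46.9, 47.0 and 53.6 on chromosome 4. Klf5 had 21, 30 and 19 peaks beside 7.21, 7.37 and 7.56 at that of chromosome 14, so its window was dense in all 3 lists.

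**Figure D4:**
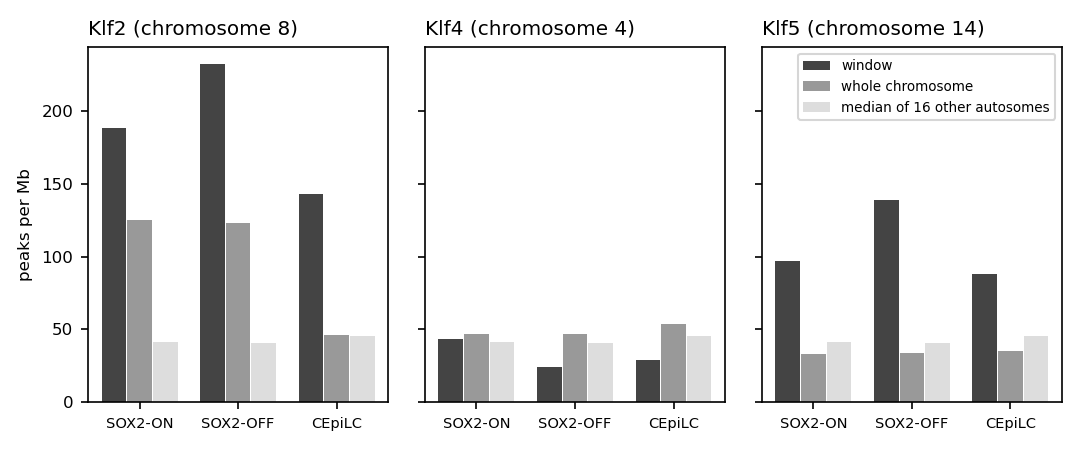
Peaks per Mb in each Klf window, on its whole chromosome and as the median of the 16 autosomes other than 6, 8 and 11, for the 3 lists (bars start at 0, 1 sample each). Chromosome 8 stands at 125 and 123 per Mb in SOX2-ON and SOX2-OFF and at 45.9 in CEpiLC, while chromosomes 4 and 14 stay near the median.

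Peak widths in the windows followed the lists they came from. The medians were 735, 783 and 452 bp for SOX2-ON, SOX2-OFF and CEpiLC, beside list medians of 621, 741 and 526 bp. The widest start peak was that of Klf4, at 3314, 3398 and 3699 bp in SOX2-ON, SOX2-OFF and CEpiLC, and covered a large part of the gene. The Klf2 start peak measured 1729, 1822 and 1818 bp and the Klf5 start peak 1262, 1195 and 1311 bp. Start peak widths thus varied little between lists, even at Klf4 where the rank did.

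In the central 300 bp of the 68 SOX2-ON peaks, the SOX motif was present in 15 (22.1%, Wilson 95% interval 13.8 to 33.3%), beside 16.5% of all SOX2-ON peaks. The share was 14 of 82 (17.1%) in SOX2-OFF and 8 of 54 (14.8%) in CEpiLC, beside 13.4% and 12.6% over those lists. The KLF motif, which matches the GC-rich sites bound by the products of these genes, was in 25 of the 68 SOX2-ON peaks (36.8%, 26.3 to 48.6%), beside 34.9%. For TCF/LEF, the DNA-binding partners of β-catenin, it was 6 of 68 (8.82%, 4.11 to 17.9%) beside 4.66%, with 7 of 82 (8.54%) beside 5.11% in SOX2-OFF and 4 of 54 (7.41%) beside 4.75% in CEpiLC. These shares were above the list value in each sample, on overlapping sets of regions and few peaks. OCT was found in 2 (2.94%) beside 2.09%, STAT in 5 (7.35%) beside 8.24% (1 of 54 CEpiLC peaks, 1.85%, beside 7.87%), ESRRB in 5 (7.35%) beside 5.74%, CDX in 4 (5.88%) beside 4.24% and T-box in 0, with an upper bound of 5.35%, beside 1.43%. Each of the 8 SOX2-ON intervals, covering counting error only, included the value of the whole list. The 2 strong SOX2-ON peaks away from starts that were not lower in SOX2-OFF also held matches, with 1 KLF match at Klf4 +17.1 kb and 1 each of SOX, TCF/LEF and KLF at Klf5 +26.1 kb.

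Marker genes were read at their starts as a check of the labels. Of the 4 caudal epiblast genes, T ranked 21225, 11301 and 13877 in SOX2-ON, SOX2-OFF and CEpiLC, and Cdx2 ranked 20090, 13713 and 10000. Nkx1-2 ranked 30054, 24237 and 17717, whereas Tbx6, at 22350, 21795 and 27173, was lowest in CEpiLC and nearly level in the other two. The epiblast genes Fgf5 (20193, 13071 and 11288) and Otx2 (28383, 15937 and 19166) were ranked lowest in SOX2-ON and Pou5f1 (8255, 10220 and 13680) was ranked best there. The 4 naive genes read as markers had no common order: Nanog ranked 15552, 16815 and 22031, Zfp42 7119, 7995 and 9121, Esrrb 14669, 13732 and 16672, and Tfcp2l1 8187, 5129 and 4734. Of 6 genes marking feeder fibroblasts, Col3a1 and Postn had no start peak in any list and 4 had one in all 3 lists, with ranks running from 7829 to 27311 in SOX2-ON, 9472 to 19285 for SOX2-OFF and 9250 to 16756 for CEpiLC. A peak at a start does not show transcription, so these ranks bear on cell identity only loosely.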

How the data were processed

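ATAC-seq was measured in 3 samples, grouped by the labelled genotype and doxycycline treatment. The authors processed reads with the nf-core/atacseq pipeline (Trim Galore, BWA, mm10, mitochondrial reads removed), and broad peaks were called per sample with MACS2. The settings for shifting cut positions and any control library are not given in the sources used here, so peak edges are approximate. The deposited fold enrichment of a peak is a ratio to the local background, and the deposited −log10 p and −log10 q come from the caller. The deposited score was made by the authors' caller from the −log10 q and was not used. Read totals were not used, so depth is unknown beyond the scale of these values.

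Peaks were ranked within lists, intersected and annotated with GENCODE M21 in Python 3.11.15 with pandas 2.3.3 and numpy 2.4.6. Motifs were sought in GRCm38.p6. Interval functions were tested on simulated data. Named regions were the start of each gene, strong peaks missing from another list, the 3 best-ranked regions over 1 kb from any start, and the region with the largest SOX2-ON to SOX2-OFF rank ratio. Named genes were those at these regions and the genes with the most alike start ranks. Members, lists and motifs were chosen with earlier results of these data known. No test between groups was possible with 1 sample each.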

Additional observations from a re-analysis of the deposited data

How the results depend on the processing

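No paired analysis was possible because only 1 sample stood in each group. Of 64 alternative values, 31 stayed close to the value reported, 30 moved and 3 turned direction. The alternatives for the counts of lower-ranked peaks and for CEpiLC were chosen after seeing the data. The cause of each move was not tested, apart from those that follow from fewer peaks or loci being counted.

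The number of strong SOX2-ON peaks absent from SOX2-OFF, 1 as reported, was 0 with the strongest 10000, with ranking by fold enrichment and without Klf2, 4 with the strongest 50000, 2 at 50% of the length and 3 with 200 kb on either side. The count for SOX2-OFF peaks missing from SOX2-ON stayed at 0 under all 8 alternatives. Those missing from CEpiLC fell from 3 to 1 without Klf2. The count of 5 SOX2-ON peaks ranked lower in SOX2-OFF was 5, 4 and 5 with a ratio of 3, with fold enrichment and within the chromosome, and the reverse count of 1 became 0 with a ratio of 3 and 2 with fold enrichment.

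Regions covered in all 3 lists fell from 34 to 18 and 12 at a −log10 q of at least 2 and 5. They fell to 20 with 50 kb on either side and to 14 without Klf2. The total fell too, so the share went from 33.0% to 28.6% and 38.7% at those limits on q. It was 33.9% with 50 kb and 28.0% without Klf2. With 500 bp intervals at peak midpoints it was 26 of 116 (22.4%). Peaks numbered 27, 20 and 14 in SOX2-ON, SOX2-OFF and CEpiLC at a −log10 q of at least 5, 50, 47 and 23 at 2, and 41, 50 and 29 with 50 kb, so the larger number of SOX2-OFF than SOX2-ON peaks turned at both limits on q. The median width there was 1260, 1190 and 1090 bp.

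The CEpiLC to SOX2-ON rank ratio at the Klf2 start turned from 1.26 to 0.646 by fold enrichment and to 0.979 within the chromosome. The value of 0.979 compares ranks among 5934 CEpiLC and 16235 SOX2-ON peaks of chromosome 8, lists of unequal length. At Klf5 the ratio turned from 0.852 to 1.08 within the chromosome. By fold enrichment the Klf4 CEpiLC ratio was 1.31 and the Klf5 SOX2-OFF ratio 0.725. Searching whole peaks raised the SOX share to 39.7%, KLF to 61.8%, STAT to 19.1% and ESRRB to 17.6%.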
